A study of Ambystoma mexicanum with 12 samples.

Results

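Injured spinal cords of the axolotl (Ambystoma mexicanum) that had received a control inhibitor were compared with uninjured cords, 4 days post injury (dpi). The comparison set 3 control libraries against 3 uninjured libraries. It covered the 14310 of 15091 gene symbols whose mean over these 6 libraries was at least 1 TPM (transcripts per 1000000, a relative abundance corrected for contig length). The control cords had been injected into the central canal with a control oligonucleotide inhibitor, electroporated on the day of injury and again at 2 dpi, and transected. The uninjured cords are labelled by treatment as uninjured spinal cord. The titles of replicates 1 and 5 also carry Cntl, as those of the control cords do, and the title of replicate 2 does not. The labels do not say whether they were injected or electroporated, so injury and that procedure cannot be told apart. All animals were of the white strain, and no allele or transgene was given for any group. By the labels a library pooled 10 animals of 2 to 3 cm, and by the methods 6 cords of animals of 3 to 5 cm, so each library is the average of several animals. The 6 other libraries of the series, 3 uninjured and 3 at 4 dpi with a miR-200a inhibitor, entered the estimate of the spread, and their levels are given for some genes at the end.

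After a spinal cord lesion, resident microglia and macrophages from the blood gather at the wound, take up dead cells and myelin, and break them down in lysosomes. Granulocytes arrive early and release antimicrobial proteins and proteases, and complement proteins tag debris for uptake. In salamanders the ependymoglia, the glia that line the central canal, take part in repair, and the severed ends reconnect without a glial scar. The genes below are ordered by their part in these processes. Symbols are those of the human protein that best matched each axolotl contig, so the roles given are known from human and mouse proteins. A gene of the same name was found in the axolotl RefSeq annotation (assembly UKY_AmexF1_1) for 11821 of the genes tested and for 86 of the 128 that changed. None was found for TREM2, TYROBP, MRC1, CLEC4M, C5AR1, CCR1, CXCL10, MMP10, CES1, CES5A, EVI2A, CTSV or SERPINB10. The same held for SIGLEC14, C6orf25 and KLHL9, for KRT7, ZAN, FNDC7 and ZNF17 among the 8 fallen genes, and for others named below. In a family such as the C-type lectins, the symbol may therefore stand for a relative of the human gene.

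Values are given in a fixed order, uninjured replicates 1, 2 and 5 first and control replicates 1, 5 and 6 second. Replicate 2 is the uninjured library that carries no number in its label. Neural genes marked the tissue in every library. NEFM, the medium neurofilament of axons, was at 2841, 439.9 and 526 TPM in uninjured and 1067, 262 and 382 TPM in control libraries. GFAP, the intermediate filament of glia, lay at 2335, 449 and 1041 TPM in uninjured and 827, 313 and 421 TPM in control libraries. Uninjured replicate 1 held the highest level of both neural genes. In both libraries numbered 1 the 50 most abundant genes took 17.3% and 19.5% of all TPM, against 22.3% to 32.9% in the other 10 libraries, and the median gene lay 0.60 (uninjured) and 0.55 (control) higher on the log2 scale than in the rest of their group. Skeletal muscle markers summed to 22204, 81975 and 65594 TPM and 39870.0, 23848 and 30478 TPM, so muscle transcripts were present in every library, most of all in uninjured replicates 2 and 5. These were bulk samples, in which fewer cells of a type and less RNA per cell cannot be told apart.

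Of the 14310 genes tested, 120 rose (0.839%) and 8 fell (0.0559%) at 4 dpi, 128 in all (0.894%; limma, adjusted p under 0.05, two-sided). These shares are the background for the counts in every gene list below. Some risen genes are on more than 1 list, so the counts of different lists overlap. Among them are CTSB, LYZ, CD68, APOE, C1QB, C1QC, C5AR1, CXCL10 and SERPING1. The log2 fold changes of the risen genes ran from 0.91 to 5.95 with a median of 2.63, and 84 of them exceeded 2. The median over all genes tested was -0.09. The groups did not overlap for any of the 120 risen genes, so a lack of overlap adds nothing to a call. Of all 14310 genes, 1089 were higher and 283 lower in every control library than in every uninjured library. LYZ, PLBD1, LCP1, CYBB and CLEC4M had the smallest adjusted p-values, and all of these but CLEC4M are known as products of phagocytes. At an unadjusted p under 0.05, 1031 genes were higher and 416 lower. The spread of all 12 libraries entered this test. With only the 6 compared libraries in the fit, 14 genes rose (PLBD1, LYZ, FABP1, CD53, CYBB, LCP1, HMOX1, EVI2A, CLEC4M, PLEK, SRGN, CTSC, CES1 and C5AR1) and 1 fell (C1QTNF2). When 1 of the 6 libraries was left out in turn, the number of risen genes ran from 74 (without control replicate 6) to 257 (without uninjured replicate 2), and without both libraries numbered 1 it was 221. Each of these fits kept the libraries with the miR-200a inhibitor. A call that held in them could still be lost with only the 6 compared libraries.

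**Figure D1:**
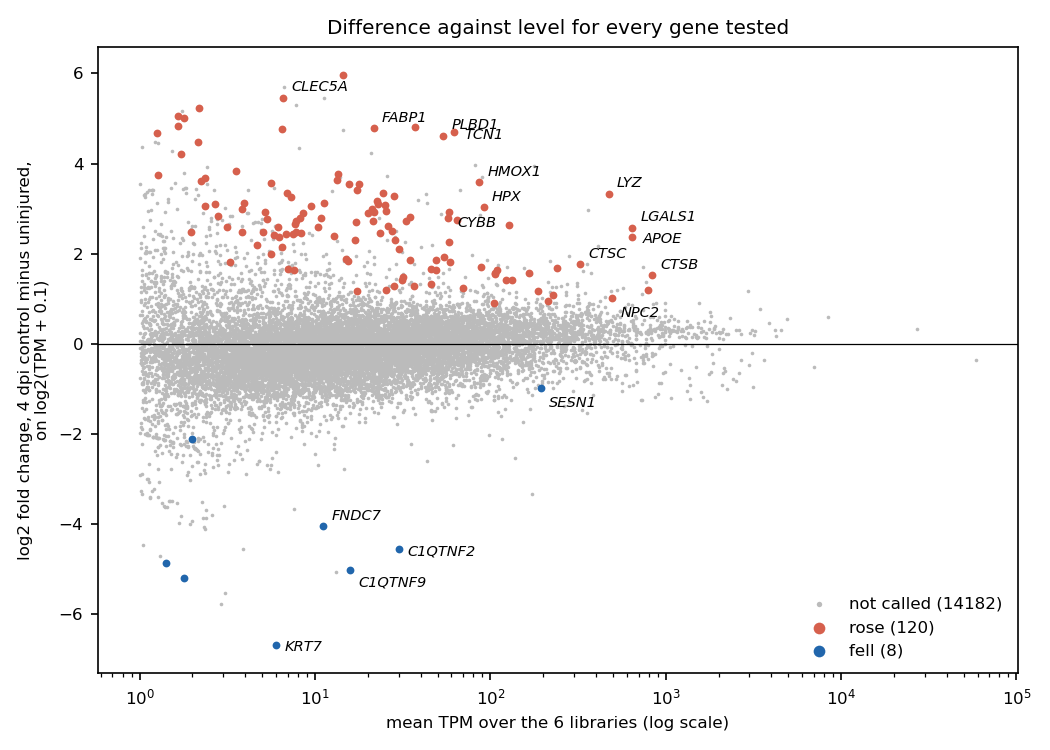
Log2 fold change (4 dpi control minus uninjured, on log2(TPM + 0.1)) against the mean TPM over the 6 libraries on a log axis, 1 point for each of the 14310 genes tested. The 120 risen genes (red) lie mostly between log2 fold changes of 1 and 5, and the 8 fallen genes (blue) are few. LYZ, LGALS1, APOE, CTSB, S100A10 and NPC2 are among the abundant genes that rose.

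Some receptors that recognise sugars, microbes and dying cells rose. Of 27 tested phagocytosis receptors and bridging proteins 5 rose and 0 fell (median log2 fold change 0.64), and of 36 tested genes of Toll-like receptors and NF-kB 2 rose and 0 fell, where 0.839% of all genes rose. The 5 were the C-type lectins CLEC5A, CLEC4E, CLEC4G and CD207, and the leukocyte gene PLEK. No gene with the name of any of these lectins was found in the axolotl annotation. MRC1, MARCO, TREM2 and TYROBP, given next, are counted in the list of microglia and macrophage markers instead. MRC1, the macrophage mannose receptor, stood at 2.65, 2.31 and 2.46 TPM in uninjured and 29.9, 14.8 and 12.7 TPM in control libraries. MARCO, a scavenger receptor for bacteria and debris, was at 4.21, 1.72 and 2.12 TPM in uninjured and 51.4, 18.1 and 28.9 TPM in control libraries. Control replicate 1 held the highest level of both, and the lowest control library still lay above every uninjured library (log2 fold change 2.80, adjusted p = 5.99e-04 for MRC1, and log2 fold change 3.54, adjusted p = 6.68e-04 for MARCO). TREM2, the lipid-sensing receptor of microglia, lay at 10.03, 2.93 and 5.36 TPM in uninjured and 64.8, 30.2 and 39.4 TPM in control libraries. Its signalling adaptor TYROBP stood at 7.07, 4.84 and 10.6 TPM in uninjured and 36.1, 43.1 and 39.8 TPM in control libraries. The groups did not overlap for either gene, and control libraries were close to each other for TYROBP (log2 fold changes 2.95 and 2.46, adjusted p = 0.00278 and 5.44e-04). The C-type lectins CLEC5A, CLEC4E, CLEC4G, CLEC4M and CD207 bind sugars on pathogens and damaged cells. CLEC4M, which captures mannose-rich glycans, was at 4.33, 4.13 and 4.74 TPM in uninjured and 32.2, 32.9 and 23.97 TPM in control libraries. CLEC4G lay at 2.04, 3.07 and 0.793 TPM in uninjured and 18.9, 31.3 and 25.5 TPM in control libraries. CLEC4E, a receptor for mycobacterial glycolipid and for a protein that dying cells release, stood at 1.72, 1.39 and 2.39 TPM in uninjured and 12.4, 23.4 and 9.57 TPM in control libraries. All control libraries exceeded all uninjured libraries for these lectins (log2 fold change 2.71, adjusted p = 1.00e-04 for CLEC4M, log2 fold change 3.77, adjusted p = 0.00190 for CLEC4G, and log2 fold change 2.91, adjusted p = 0.00173 for CLEC4E). CLEC5A and CD207 were listed at 0 in at least 1 uninjured library. CLEC5A was at 0, 2.15 and 0 TPM in uninjured and 11.8, 14.4 and 11.1 TPM in control libraries (adjusted p = 0.00809). CD207, the langerin of Langerhans cells, lay at 0, 0.414 and 1.36 TPM in uninjured and 16.5, 13.8 and 6.57 TPM in control libraries (adjusted p = 0.00634). The endosomal sensors of single-stranded RNA, TLR7 and TLR8, rose by log2 fold changes of 2.48 and 2.44 (adjusted p = 0.00657 and 0.0147), whereas TLR2, a surface receptor for bacterial lipoproteins, stood at 5.43, 5.24 and 6.24 TPM in uninjured and 8.57, 7.34 and 5.72 TPM in control libraries with overlapping groups (adjusted p = 0.717). The calls that did not hold with 1 library left out were TLR7 without control replicate 6 (0.0593) and TLR8 without control replicate 5 (0.0890). With only the 6 compared libraries in the fit, CLEC4M and PLEK passed (adjusted p = 0.0481 for each). MRC1 (0.108), MARCO (0.0737) and TREM2 (0.125) were among those that did not.

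The oxidase that phagocytes use to make superoxide rose in its catalytic subunit. CYBB, that subunit, was at 14.7, 15.5 and 10.3 TPM in uninjured and 114, 102 and 91.01 TPM in control libraries. Control libraries lay within a narrow range, far above every uninjured library (log2 fold change 2.93, SE 0.23, adjusted p = 5.54e-05). NCF1, the organiser subunit p47phox, lay at 0.932, 0.442 and 0.325 TPM in uninjured and 3.27, 2.36 and 1.92 TPM in control libraries and did not pass the test (adjusted p = 0.0918). Among genes of leukocyte identity, SPI1, the transcription factor that directs macrophage development, stood at 3.997, 3.65 and 3.61 TPM in uninjured and 33.1, 12.3 and 20.1 TPM in control libraries. PTPRC, the pan-leukocyte phosphatase CD45, was at 2.65, 1.32 and 1.87 TPM in uninjured and 15.01, 8.29 and 8.39 TPM in control libraries. Control replicate 1 was the highest library for both, with no overlap between groups (log2 fold change 2.40, adjusted p = 0.00375 for SPI1, and log2 fold change 2.38, adjusted p = 0.00801 for PTPRC). CD53, a tetraspanin of leukocytes, lay at 5.22, 3.32 and 4.49 TPM in uninjured and 46.1, 48.05 and 39.8 TPM in control libraries. LCP1, the leukocyte actin-bundling protein L-plastin, stood at 10.5, 7.51 and 8.13 TPM in uninjured and 64.6, 53.8 and 54.1 TPM in control libraries. SRGN, the proteoglycan core of leukocyte granules, was at 6.66, 9.996 and 8.199 TPM in uninjured and 43.5, 52.2 and 44.7 TPM in control libraries. These were among the firmest changes, with control libraries near one another and well above the uninjured libraries (log2 fold change 3.35, adjusted p = 1.04e-04 for CD53, log2 fold change 2.72, adjusted p = 5.54e-05 for LCP1, and log2 fold change 2.50, adjusted p = 1.35e-04 for SRGN). EVI2A, SAMSN1, IGSF6, PLEK, MILR1, LY86, NCKAP1L and SLA, which are also leukocyte genes, rose by log2 fold changes of 3.54, 3.07, 3.06, 2.61, 2.30, 2.49, 2.66 and 2.71 in that order. SLA lost its call without control replicate 5 (0.0741) and without control replicate 6 (0.0887). OCSTAMP, a membrane protein needed for cell fusion in osteoclasts and macrophages, lay at 0.358, 0 and 0 TPM in uninjured and 4.85, 3.66 and 1.43 TPM in control libraries and rose (adjusted p = 0.00657).

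Of 36 tested genes on a list of microglia and macrophage markers, 15 rose and 0 fell, with a median log2 fold change of 2.19 against -0.09 over all genes. The summed TPM of the list was 1456, 2174 and 1524 in uninjured libraries and 4641, 4630.4 and 3929.5 in control libraries. Much of the control sum came from CTSB (1125, 1387 and 1194 TPM) and APOE (722, 1564 and 943 TPM). In uninjured libraries CTSB was at 435, 408 and 439 TPM and APOE at 142, 162 and 336 TPM. Glia secrete APOE as well, so the sum is not a measure of macrophages alone. Not every marker passed. AIF1, a calcium-binding protein of microglia, stood at 103, 23.4 and 72.3 TPM in uninjured and 202, 169.95 and 175 TPM in control libraries (adjusted p = 0.103). CSF1R, the receptor for macrophage colony-stimulating factor, was at 7.78, 1.47 and 3.18 TPM in uninjured and 21.6, 9.45 and 9.48 TPM in control libraries (adjusted p = 0.141). P2RY12, a purine receptor of resting microglia, lay at 6.92, 0.717 and 3.07 TPM in uninjured and 2.498, 1.695 and 2.16 TPM in control libraries, with overlapping groups (adjusted p = 0.911). CX3CR1 was listed at 0 in all 6 libraries, and CD14 and MSR1 are not among the symbols of the table. The list was written with earlier results of these data known, so its count is a description. Leaving out each library in turn, both libraries numbered 1, or changing the scaling left its median above 1. With only the 6 compared libraries in the fit, 2 of its genes rose.

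**Figure D2:**
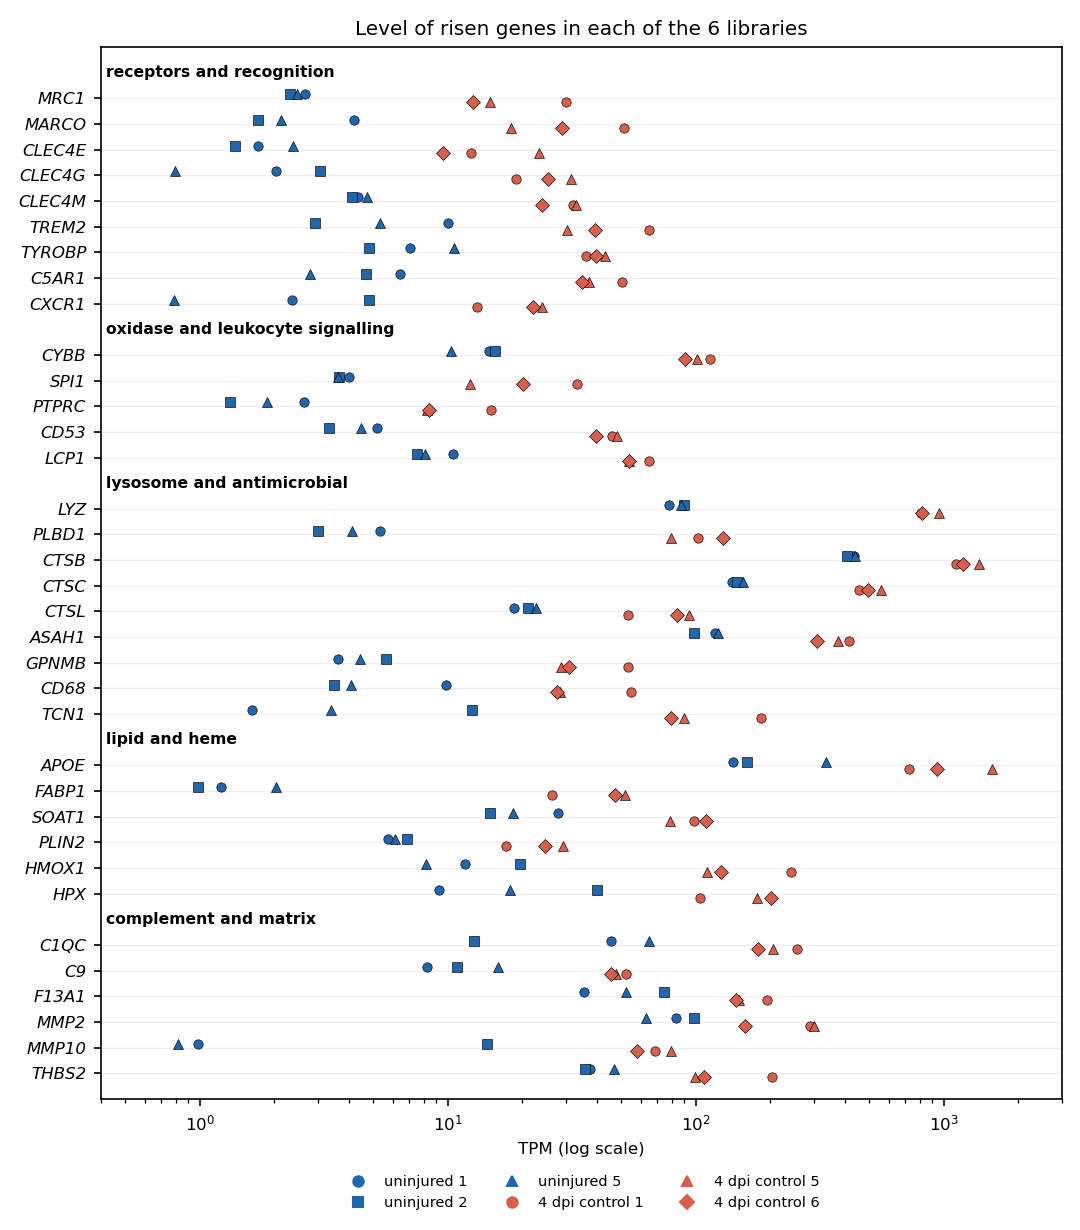
TPM on a log axis of 35 risen genes in each uninjured (blue) and 4 dpi control (red) library, with the symbol shape giving the replicate number, grouped by role. Every control point lies to the right of every uninjured point for each gene shown, as it did for all 120 risen genes.

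Some lysosomal enzymes rose, both abundant and scarce ones. CTSB, the protease cathepsin B, was the most abundant gene among those that rose and stood at 435, 408 and 439 TPM in uninjured and 1125, 1387 and 1194 TPM in control libraries. CTSC, the cathepsin that activates granule proteases, was at 140.2, 147 and 155 TPM in uninjured and 456, 559 and 494 TPM in control libraries. CTSL, cathepsin L, lay at 18.6, 21.1 and 22.6 TPM in uninjured and 53.3, 93.8 and 84.4 TPM in control libraries. The spread within groups was small beside the difference (log2 fold change 1.53, SE 0.18, adjusted p = 8.32e-04 for CTSB, log2 fold change 1.76, SE 0.16, adjusted p = 1.51e-04 for CTSC, and log2 fold change 1.85, SE 0.24, adjusted p = 0.00171 for CTSL). PLBD1, a phospholipase B-like lysosomal protein, stood at 5.32, 2.99 and 4.101 TPM in uninjured and 102, 79.6 and 129 TPM in control libraries. ASAH1, the acid ceramidase that breaks down sphingolipids, was at 119, 98.8 and 123 TPM in uninjured and 416, 374 and 309 TPM in control libraries. PLBD1 thus was scarce in every uninjured library and plentiful in every control library (log2 fold change 4.62, SE 0.27, adjusted p = 2.73e-06), and ASAH1 changed less from a higher level (log2 fold change 1.68, SE 0.18, adjusted p = 5.19e-04). GPNMB, a membrane glycoprotein of lipid-loaded macrophages, lay at 3.62, 5.63 and 4.45 TPM in uninjured and 53.5, 28.8 and 30.96 TPM in control libraries. CD68, a lysosomal membrane glycoprotein of macrophages, stood at 9.89, 3.497 and 4.09 TPM in uninjured and 54.8, 28.5 and 27.7 TPM in control libraries. CST7, an inhibitor of lysosomal cathepsins, was at 2.73, 4.996 and 6.84 TPM in uninjured and 32.9, 43.7 and 28.3 TPM in control libraries. For GPNMB and CD68 control replicate 1 was the highest library, for CST7 control replicate 5 was (log2 fold change 2.98, adjusted p = 0.00138, log2 fold change 2.73, adjusted p = 0.00881 and log2 fold change 2.89, adjusted p = 5.86e-04 in that order). NPC2, which hands cholesterol out of the lysosome, lay at 351, 294 and 335 TPM in uninjured and 589.5, 754 and 632 TPM in control libraries. CTSV, a cathepsin close to CTSL, stood at 42.2, 54.8 and 63.2 TPM in uninjured and 138, 169 and 168 TPM in control libraries. These were smaller changes with no overlap (log2 fold change 1.01, adjusted p = 0.0112 for NPC2, and log2 fold change 1.58, adjusted p = 0.00548 for CTSV). Of 44 tested lysosomal hydrolases 7 rose (15.9%) and 0 fell, with a median log2 fold change of 0.42. Among 30 lysosomal membrane and proton pump genes 2 rose (6.67%) and 0 fell, where 0.839% of all genes rose. CTSD, the abundant aspartic cathepsin, was at 317, 181 and 253 TPM in uninjured and 438, 283 and 324 TPM in control libraries, with overlapping groups (adjusted p = 0.554). NPC2 lost its call without control replicate 5 (0.0665) and without control replicate 6 (0.0597), and with median-of-ratios scaling the adjusted p was 0.129 for NPC2 and 0.0659 for CTSV.

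Several antimicrobial and granulocyte products rose. LYZ, the lysozyme of granulocytes and macrophages, lay at 77.9, 89.5 and 87.5 TPM in uninjured and 807, 954 and 817 TPM in control libraries. This was the change with the smallest adjusted p of all genes tested, and libraries of a group differed by little (log2 fold change 3.33, SE 0.16, adjusted p = 5.57e-07). TCN1, the vitamin B12 carrier of neutrophil granules, stood at 1.63, 12.6 and 3.40004 TPM in uninjured and 184, 89.9 and 79.8 TPM in control libraries. SERPINB10, a protease inhibitor of bone marrow cells, was at 6.57, 23.1 and 14.1 TPM in uninjured and 44.8, 131 and 122 TPM in control libraries. CXCR1, the neutrophil receptor for interleukin-8, lay at 2.37, 4.81 and 0.791 TPM in uninjured and 13.2, 24.1 and 22.02 TPM in control libraries. Uninjured replicate 2 was the highest uninjured library for all 3 genes, and no groups overlapped (log2 fold change 4.69, adjusted p = 0.00110 for TCN1, log2 fold change 2.79, adjusted p = 0.00777 for SERPINB10, and log2 fold change 3.12, adjusted p = 0.00676 for CXCR1). PRG2, the major basic protein of eosinophil granules, stood at 7.16, 0 and 0 TPM in uninjured and 27.3, 32.6 and 19.1 TPM in control libraries and rose (adjusted p = 0.0321). Its fold change depends on the 0.1 TPM added, because uninjured replicates 2 and 5 were listed at 0. CEBPE, a transcription factor of late granulocyte maturation, was at 0, 0.659 and 0 TPM in uninjured and 2.48, 1.82 and 1.63 TPM in control libraries and missed the threshold (adjusted p = 0.0977). So did ARG1, the arginase of granulocytes and alternatively activated macrophages, at 1.94, 41.7 and 3.41 TPM in uninjured and 51.9, 78.04 and 54.98 TPM in control libraries (adjusted p = 0.114). Of 19 tested granulocyte genes 4 rose (21.1%, against 0.839% of all genes) and 0 fell (median log2 fold change 2.04). The 4 were LYZ, which macrophages also make, TCN1, CXCR1 and PRG2. No gene named TCN1, CXCR1 or PRG2 was found in the axolotl annotation. Of the 31 genes on the list 9 were not in the table, among them ELANE, LCN2, S100A8, S100A9, MMP8 and CD177. The summed TPM of the list was 231, 442 and 267 in uninjured libraries and 1499.9, 1616 and 1382 in control libraries, of which LYZ alone made up more than any other gene. Without 1 of the libraries the call was lost for SERPINB10 without control replicate 6 (0.0545) and PRG2 without any 1 library except uninjured replicate 1 (up to 0.133), and with median-of-ratios scaling SERPINB10 had an adjusted p of 0.0569.

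Some receptors that steer leukocytes along chemical gradients rose. C5AR1, the receptor for complement fragment C5a, lay at 6.41, 4.69 and 2.78 TPM in uninjured and 50.3, 37.2 and 34.7 TPM in control libraries. CCR1, a receptor for inflammatory CC chemokines, stood at 1.05, 0.343 and 0.880 TPM in uninjured and 10.2, 5.53 and 5.64 TPM in control libraries. CMKLR1, the chemerin receptor of macrophages, was at 2.44, 1.06 and 2.07 TPM in uninjured and 10.1, 9.95 and 9.36 TPM in control libraries. No control library overlapped the uninjured libraries for these genes (log2 fold change 3.17, adjusted p = 3.10e-04 for C5AR1, log2 fold change 3.12, adjusted p = 0.00766 for CCR1, and log2 fold change 2.41, adjusted p = 0.00347 for CMKLR1). GPR65, an acid-sensing receptor of immune cells, lay at 0.256, 1.66 and 0.854 TPM in uninjured and 7.47, 14.2 and 9.23 TPM in control libraries. GPR34, a lysophosphatidylserine receptor of microglia, stood at 4.89, 0.627 and 2.15 TPM in uninjured and 14.5, 11.9 and 15.1 TPM in control libraries. P2RY14, a receptor for UDP-sugars, was at 0.909, 0 and 0.759 TPM in uninjured and 9.56, 4.94 and 5.17 TPM in control libraries. Uninjured libraries differed among themselves by several-fold for GPR65 and GPR34, and each remained below every control library (log2 fold change 3.58, adjusted p = 0.00278 for GPR65, log2 fold change 2.78, adjusted p = 0.0247 for GPR34, and adjusted p = 0.0403 for P2RY14). Of 33 tested cytokine and chemokine receptors 4 rose (12.1%, against 0.839% of all genes) and 0 fell, with a median log2 fold change of 0.89. TNFRSF1B, the tumor necrosis factor receptor of leukocytes, lay at 8.73, 12.8 and 3.2999 TPM in uninjured and 49.004, 23.5 and 23.7 TPM in control libraries and fell short of the threshold (adjusted p = 0.0556). So did the interleukin-6 receptor IL6R, at 3.24, 1.09 and 0.717 TPM in uninjured and 17.1, 5.19 and 8.11 TPM in control libraries (adjusted p = 0.0785). Of 24 tested cytokines and chemokines only CXCL10, an interferon-induced attractant of lymphocytes, rose, at 0.814, 4.29 and 4.41 TPM in uninjured and 13.5, 36.7 and 44.04 TPM in control libraries (log2 fold change 3.42, adjusted p = 0.0208). That single call is 4.17% of the list, where 0.839% of all genes rose. IL11, a cytokine of the interleukin-6 family, stood at 0.228, 1.02 and 0.191 TPM in uninjured and 7.28, 2.26 and 3.59 TPM in control libraries (adjusted p = 0.0600). MIF, a constitutive macrophage cytokine, was at 165, 128 and 154 TPM in uninjured and 141, 90.7 and 118 TPM in control libraries (adjusted p = 0.744). Control replicate 1 had the highest IL11 and the lowest CXCL10 of the control libraries. Leaving out 1 library ended the call for GPR34 without uninjured replicate 5 or control replicates 1, 5 or 6 (up to 0.135), P2RY14 without control replicates 1, 5 or 6 (up to 0.141) and CXCL10 without control replicate 5 (0.108) and without control replicate 6 (0.127), and with median-of-ratios scaling CXCL10 had an adjusted p of 0.0674.

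In the complement list, 5 of 34 tested genes rose (14.7%, against 0.839% of all genes) and 2 fell, and the other 27 did not pass. C1QC and C1QB, chains of the recognition molecule C1q that macrophages make, were at 45.7, 12.8 and 64.9 TPM in uninjured and 257, 205 and 178 TPM in control libraries (C1QC) and at 3.497, 0.998 and 3.76 TPM in uninjured and 18.5, 11.6 and 11.8 TPM in control libraries (C1QB). C1QA, the remaining chain, lay at 48.7, 0.879 and 21.7 TPM in uninjured and 129, 113 and 87.2 TPM in control libraries. Uninjured replicate 2 was the lowest library for all 3 chains, the groups did not overlap for any, and C1QA did not pass the test (log2 fold changes 2.64, 2.47 and 3.42, adjusted p = 0.0109, 0.0143 and 0.189). C9, which forms the membrane pore, stood at 8.24, 10.9 and 15.97 TPM in uninjured and 52.2, 47.7 and 45.7 TPM in control libraries. SERPING1, the inhibitor of C1, was at 5.07, 1.41 and 13.6 TPM in uninjured and 45.2, 33.5 and 30.8 TPM in control libraries. Both rose (log2 fold change 2.09, adjusted p = 0.00234 for C9, and log2 fold change 2.93, adjusted p = 0.0375 for SERPING1). C1QTNF9 and C1QTNF2 are secreted relatives of C1q that belong to the adipokines rather than to the complement cascade. C1QTNF9 lay at 47.8, 19.9 and 24.3 TPM in uninjured and 1.98, 0.798 and 0.278 TPM in control libraries. C1QTNF2 stood at 41.04, 105 and 28.5 TPM in uninjured and 2.48, 2.73 and 1.21 TPM in control libraries. Every control library held under 3 TPM of either, and both fell (log2 fold change -5.01, SE 0.84, adjusted p = 0.00957 for C1QTNF9, and log2 fold change -4.55, SE 0.72, adjusted p = 0.00711 for C1QTNF2). Among clotting genes, F13A1, the fibrin-crosslinking factor XIII chain that macrophages also make, was at 35.5, 74.3 and 52.6 TPM in uninjured and 195, 149.98 and 146 TPM in control libraries and rose (log2 fold change 1.65, adjusted p = 0.00935). With 1 library left out, the test was no longer passed by C1QB without control replicate 6 (0.0573), SERPING1 without uninjured replicate 1 or control replicates 1, 5 or 6 (up to 0.122) and C1QTNF9 without control replicate 6 (0.0573), and with median-of-ratios scaling F13A1 had an adjusted p of 0.0550.

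Several genes that carry or store lipid rose. APOE, the lipid carrier that macrophages and glia secrete, lay at 142, 162 and 336 TPM in uninjured and 722, 1564 and 943 TPM in control libraries. FABP1, a fatty acid-binding protein best known from liver and gut, stood at 1.22, 0.990 and 2.03 TPM in uninjured and 26.5, 51.7 and 47.2 TPM in control libraries. SOAT1, which esterifies cholesterol for storage, was at 27.9, 14.9 and 18.4 TPM in uninjured and 98.9, 78.5 and 110.5 TPM in control libraries. Control replicate 1 was the lowest control library for APOE and FABP1, and neither gene overlapped between groups (log2 fold change 2.37, adjusted p = 0.0102 for APOE, log2 fold change 4.79, adjusted p = 2.77e-04 for FABP1, and log2 fold change 2.26, adjusted p = 0.00277 for SOAT1). PLIN2, which coats lipid droplets, lay at 5.75, 6.85 and 6.15 TPM in uninjured and 17.2, 29.1 and 24.7 TPM in control libraries. CES1, a carboxylesterase of liver and macrophages, stood at 4.77, 7.04 and 3.62 TPM in uninjured and 31.8, 66.7 and 55.3 TPM in control libraries. CES5A, a secreted carboxylesterase, was at 12.3, 25.3 and 13.3 TPM in uninjured and 75.6, 142 and 119 TPM in control libraries. All 3 rose without overlap (log2 fold change 1.88, adjusted p = 0.00423 for PLIN2, log2 fold change 3.28, adjusted p = 8.32e-04 for CES1, and log2 fold change 2.75, adjusted p = 6.26e-04 for CES5A). The list of apolipoproteins and lipid carriers as a whole held 4 risen and 0 fallen genes of 33 tested, with a median of 0.16. The risen share was 12.1%, where 0.839% of all genes rose. APOA1, the main protein of high-density lipoprotein, lay at 68.3, 12.6 and 30.7 TPM in uninjured and 25.7, 14.7 and 20.3 TPM in control libraries, with overlapping groups (adjusted p = 0.862). Genes of cholesterol synthesis contained no call, and 23 of 28 lay below 0 with a median of -0.64. Of all 14310 genes 8028 lay below 0, with a median of -0.09. Without uninjured replicate 1 the cholesterol median was -0.28, against 0.12 over all genes. APOE lost its call without control replicate 5 (0.0586), and with median-of-ratios scaling its adjusted p was 0.0595.

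Of 32 tested genes of heme and iron handling 2 rose (6.25%, against 0.839% of all genes) and 0 fell (median log2 fold change 0.08). The risen genes were HMOX1 and HPX. HMOX1, the oxygenase that degrades heme, stood at 11.8, 19.7 and 8.21 TPM in uninjured and 243, 111 and 126 TPM in control libraries. HPX, the plasma protein hemopexin that binds free heme, was at 9.27, 40.1 and 17.9 TPM in uninjured and 104, 176 and 202 TPM in control libraries. Control replicate 1 was the highest library for HMOX1 and the lowest control library for HPX (log2 fold change 3.59, SE 0.35, adjusted p = 2.44e-04 for HMOX1, and log2 fold change 3.03, SE 0.48, adjusted p = 0.00660 for HPX). Of 17 tested erythroid genes none passed the test, and 12 lay above 0 (median log2 fold change 1.07), where 6282 of all 14310 genes did. Of the 29 genes on that list 20 were in the table, none of these was at 0 in all 6 libraries, and the list summed to 926, 640.3 and 1295 TPM in uninjured and 1777, 3072 and 2916 TPM in control libraries. HBA2, an alpha globin, lay at 145, 162 and 183 TPM in uninjured and 378, 624 and 521 TPM in control libraries and did not pass the test (adjusted p = 0.0817). The part of red blood cells in the level of HMOX1 and HPX was not tested. Of 37 tested antioxidant genes only GSR rose, and 0 fell (median log2 fold change 0.26). That share of 2.7% lies near the 0.839% of all genes that rose. GSR, which regenerates reduced glutathione, stood at 92.4, 147 and 111 TPM in uninjured and 217, 286 and 273 TPM in control libraries. GLRX, glutaredoxin, was at 134, 140.2 and 155 TPM in uninjured and 219.8, 361 and 351 TPM in control libraries. Both changes were small and without overlap (log2 fold change 1.16, adjusted p = 0.0135 for GSR, and log2 fold change 1.09, adjusted p = 0.0236 for GLRX). The calls were lost for GSR without uninjured replicate 5 or control replicates 5 or 6 (up to 0.0965) and GLRX without uninjured replicates 1 or 5 or control replicates 5 or 6 (up to 0.171), and with median-of-ratios scaling the adjusted p-values were 0.187 and 0.233.

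Matrix proteases and secreted signals rose in a few members. MMP2, a gelatinase that cleaves denatured collagen, lay at 83.6, 98.8 and 63.1 TPM in uninjured and 290.5, 299 and 159 TPM in control libraries. MMP10, the protease stromelysin-2, stood at 0.986, 14.4 and 0.820 TPM in uninjured and 68.8, 79.2 and 57.8 TPM in control libraries. Control replicate 6 held the least MMP2 and MMP10 among control libraries, and uninjured replicate 2 held far more MMP10 than the other uninjured libraries (log2 fold change 1.57, adjusted p = 0.00920 for MMP2, and log2 fold change 4.81, adjusted p = 0.0360 for MMP10). THBS2, an antiangiogenic matrix protein, was at 37.4, 35.7 and 46.95 TPM in uninjured and 204, 99.5 and 108 TPM in control libraries. CCDC80, a secreted matrix-binding protein, lay at 79.7, 54.1 and 61.5 TPM in uninjured and 262, 118 and 162 TPM in control libraries. PI15, a secreted protease inhibitor, stood at 23.6, 16.995 and 26.9 TPM in uninjured and 105, 61.01 and 92.2 TPM in control libraries. Control replicate 1 was the highest library for these genes (log2 fold change 1.71, adjusted p = 0.0243 for THBS2, log2 fold change 1.41, adjusted p = 0.0325 for CCDC80, and log2 fold change 1.92, adjusted p = 0.00340 for PI15). HGF, the hepatocyte growth factor that acts on the MET receptor, was at 0.859, 3.33 and 0.418 TPM in uninjured and 15.3, 9.44 and 12.3 TPM in control libraries. DKK1, a secreted inhibitor of Wnt signalling, lay at 0.446, 1.12 and 0.372 TPM in uninjured and 6.46, 3.301 and 5.07 TPM in control libraries. Each was low in uninjured cords and did not overlap with control cords (log2 fold change 3.35, adjusted p = 0.0112 for HGF, and log2 fold change 2.84, adjusted p = 0.0236 for DKK1). HGF was the single call among 58 tested growth factor genes (1.72%) and DKK1 among 49 tested Wnt genes (2.04%), shares near the 0.839% of all genes that rose. MMP7, the protease matrilysin, stood at 0, 0.617 and 0 TPM in uninjured and 39.5, 4.62 and 2.29 TPM in control libraries (adjusted p = 0.0523). COL3A1, a fibrillar collagen, was at 499, 305 and 421 TPM in uninjured and 1805, 668 and 937 TPM in control libraries (adjusted p = 0.0817). FN1, fibronectin, lay at 40.3, 25.6 and 26.03 TPM in uninjured and 156, 44.1 and 53.6 TPM in control libraries (adjusted p = 0.258). These did not pass, and no call was made among 49 collagen genes (median -0.35) or 38 proteoglycan genes (median -0.28). Where 0.894% of all genes passed, a count of 0 lies near the background. The threshold was missed, with 1 library left out, by MMP2 without control replicate 5 (0.0582), MMP10 without any 1 library except uninjured replicate 2 (up to 0.142), THBS2 without uninjured replicates 1 or 5 or control replicates 1 or 6 (up to 0.0643), CCDC80 without uninjured replicates 5 or 2 or control replicates 1 or 6 (up to 0.125), HGF without control replicate 6 (0.0628) and DKK1 without uninjured replicate 5 or control replicates 1, 5 or 6 (up to 0.144), and with median-of-ratios scaling MMP10 had an adjusted p of 0.0622.

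A few genes of glial reactivity rose. LGALS1, the glycan-binding galectin-1, stood at 101, 166 and 346 TPM in uninjured and 931, 1207 and 1099 TPM in control libraries. S100A10, a partner of annexin A2, was at 382, 548 and 517 TPM in uninjured and 847, 1232 and 1239 TPM in control libraries. Uninjured replicate 5 held the most LGALS1 of the uninjured libraries and still lay far below every control library (log2 fold change 2.58, SE 0.33, adjusted p = 0.00173 for LGALS1, and log2 fold change 1.19, SE 0.21, adjusted p = 0.0121 for S100A10). NES, the intermediate filament nestin of neural progenitors, lay at 123, 57.3 and 90.7 TPM in uninjured and 191, 190.5 and 189 TPM in control libraries, nearly the same in the 3 control libraries and above every uninjured library, and did not pass the test (adjusted p = 0.0866). VIM, vimentin, stood at 465, 229.8 and 384 TPM in uninjured and 693, 447 and 560.03 TPM in control libraries (adjusted p = 0.395). GFAP, given above, had a log2 fold change of -1.11 with overlapping groups (adjusted p = 0.509). SOX2, a neural stem cell factor, was at 232, 57.5 and 57.2 TPM in uninjured and 115, 35.7 and 66.004 TPM in control libraries. Its groups overlapped too (log2 fold change -0.50, adjusted p = 0.755). Of 31 tested genes of reactive astrocytes in mammals 4 rose (12.9%, against 0.839% of all genes) and 0 fell. The 4 were LGALS1, S100A10, SERPING1 and CXCL10, genes that macrophages or other cells also express. Among transcription factors, ATF3, a stress-induced factor of injured neurons and macrophages, was at 0.763, 2.92 and 0.826 TPM in uninjured and 9.91, 6.97 and 10.7 TPM in control libraries. BATF3, a factor of dendritic cells, lay at 0.355, 1.73 and 0.592 TPM in uninjured and 4.34, 8.3999 and 7.59 TPM in control libraries. These 2 rose (log2 fold change 2.77, adjusted p = 0.0121 for ATF3, and log2 fold change 2.99, adjusted p = 0.00920 for BATF3), out of 31 tested AP-1 and immediate early genes. That is 6.45%, where 0.839% of all genes rose. FOS stood at 1.62, 2.45 and 0.659 TPM in uninjured and 8.34, 1.701 and 3.87 TPM in control libraries (adjusted p = 0.641). JUN was at 70.8, 62.96 and 32.9 TPM in uninjured and 121, 65.7 and 83.3 TPM in control libraries (adjusted p = 0.509). JUNB lay at 37.8, 347 and 38.995 TPM in uninjured and 389.9, 212 and 285 TPM in control libraries (adjusted p = 0.358). Groups overlapped for these AP-1 subunits, and uninjured replicate 2 held more JUNB than control replicates 5 and 6. The calls that did not hold with 1 library left out were S100A10 without control replicate 5 (0.0717) and without control replicate 6 (0.0915), ATF3 without uninjured replicate 5 (0.0585) and without control replicate 6 (0.0887) and BATF3 without control replicate 5 (0.0586) and without control replicate 6 (0.0616), and with median-of-ratios scaling S100A10 had an adjusted p of 0.256.

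The remaining genes that fell were few and mostly scarce. SESN1, a stress-responsive regulator of growth signalling, was the abundant member and stood at 229, 258 and 285 TPM in uninjured and 113, 138 and 139 TPM in control libraries. Uninjured levels were higher than control levels in every library (log2 fold change -0.98, SE 0.18, adjusted p = 0.0167). KRT7, a keratin of simple epithelia, was at 5.39, 21.96 and 8.78 TPM in the uninjured libraries and was listed at 0 in all 3 control libraries (adjusted p = 0.00375). FAM229A and ZAN, the sperm protein zonadhesin, were likewise listed at 0 in every control library, from 4.09, 3.31 and 3.395 TPM and 3.23, 2.61 and 2.68 TPM in the uninjured libraries (adjusted p = 0.0155 and 0.0292). FAM229A and ZAN stood in nearly the same proportion to each other in every uninjured library. Whether they are separate changes was not tested. FNDC7, a protein with fibronectin domains, lay at 6.64, 52.05 and 6.17 TPM in uninjured and 0.885, 0.731 and 0.494 TPM in control libraries, and the zinc finger gene ZNF17 at 3.09, 3.34 and 3.43 TPM in uninjured and 0.698, 0.658 and 0.687 TPM in control libraries. Uninjured replicate 2 was the highest library by far for FNDC7, whereas ZNF17 was nearly constant within each group (log2 fold change -4.05, adjusted p = 0.0364 for FNDC7, and log2 fold change -2.12, adjusted p = 0.0299 for ZNF17). In the opposite direction, 5 risen genes were listed at 0 in all uninjured libraries, and no fold is given for them. JCHAIN, the joining chain of secreted antibodies, stood at 1.94, 2.44 and 6.36 TPM in the control libraries, and SIGLEC14, a sialic acid-binding receptor of myeloid cells, at 3.44, 4.08 and 2.36 TPM. C6orf25, a platelet receptor, was at 8.16, 2.88 and 2.01 TPM, KLHL9, a ubiquitin ligase adaptor, at 1.14, 5.37 and 3.37 TPM, and TVP23A at 3.25, 2.401 and 1.87 TPM (adjusted p = 0.00400, 0.00517, 0.0477, 0.0486 and 8.36e-04 in that order). Without 1 of the libraries the call was lost for SESN1 without uninjured replicate 5 or control replicates 5 or 6 (up to 0.0806), FAM229A without uninjured replicates 1 or 5 or control replicates 5 or 6 (up to 0.0868), ZAN without uninjured replicates 1 or 5 or control replicates 5 or 6 (up to 0.122), FNDC7 without uninjured replicate 2 or control replicates 1, 5 or 6 (up to 0.174), ZNF17 without uninjured replicate 5 or control replicates 5 or 6 (up to 0.135), JCHAIN without control replicate 6 (mean under the 1 TPM minimum), C6orf25 without any 1 of the 6 libraries (up to 0.139), KLHL9 without uninjured replicates 1 or 5 or control replicates 5 or 6 (up to 0.284) and TVP23A without control replicate 1 (mean under the 1 TPM minimum). With median-of-ratios scaling the adjusted p was above 0.05 for SESN1 (0.230), ZAN (0.0505), FNDC7 (0.0617), C6orf25 (0.0844) and KLHL9 (0.0831).

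No gene passed the test among 35 neuronal, 40 proneural, 51 transmitter receptor, 44 synaptic or 30 oligodendrocyte genes. Of all genes 0.894% passed, so a count of 0 lies near the background. The medians of these lists were -0.87, -1.04, -0.84, -0.86 and -0.66 in that order, below the -0.09 of all genes. The gap was smaller without 1 library. The neuronal list summed to 25240.0, 4797 and 8587 TPM in uninjured and 9948, 4602 and 5935 TPM in control libraries, and uninjured replicate 1 was the high one. Without that library the medians were -0.10, -0.45, -0.12, -0.13 and 0.12, against 0.12 over all genes. Without both libraries numbered 1 they were -0.61, -0.81, -0.58, -0.59 and -0.47, against -0.05 over all genes. ATOH1 and NEUROG3 are proneural factors, which start neuron formation. ATOH1 lay at 10.8, 6.28 and 1.29 TPM in the uninjured libraries and was listed at 0 in every control library, and NEUROG3 stood at 13.5, 4.75 and 4.39 TPM in uninjured and 0, 0.374 and 0.391 TPM in control libraries. Their groups did not overlap, and neither passed (adjusted p = 0.0817 and 0.0692). Over all 14310 genes tested, 283 were lower without overlap. Of 47 mitosis and 43 replication genes none passed the test. At an unadjusted p under 0.05, 10 mitosis and 6 replication genes were higher and 0 lower, where 1031 of all 14310 genes were higher. Without both libraries numbered 1, 2 mitosis genes rose, where 221 of all 13765 genes did. CDK1, the mitotic kinase, was at 43.6, 68.7 and 75.01 TPM in uninjured and 81.99, 151 and 158 TPM in control libraries (adjusted p = 0.136). MKI67, a marker of dividing cells, lay at 25.9, 30.8 and 19.1 TPM in uninjured and 34.2, 26.5 and 35.4 TPM in control libraries (adjusted p = 0.684).

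**Figure D3:**
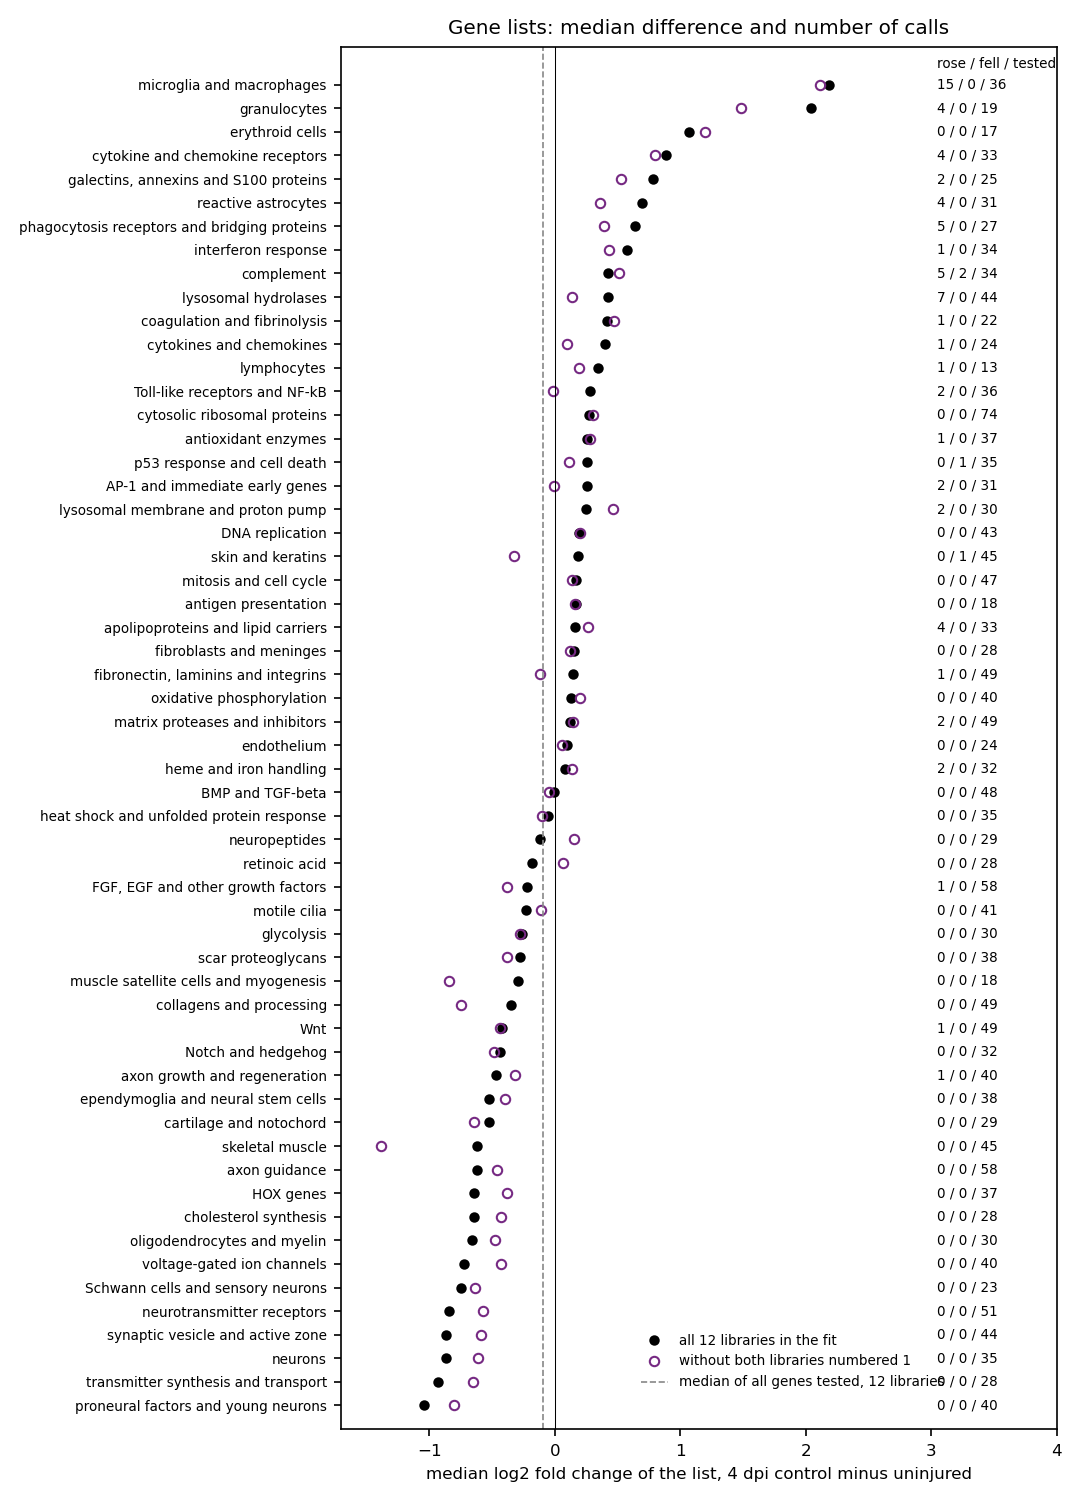
Median log2 fold change (4 dpi control minus uninjured) of the tested genes of each of 57 gene lists, with all 12 libraries in the fit (filled) and without both libraries numbered 1 (open), beside the numbers of genes that rose, fell and were tested. Microglia and macrophages (2.19) and granulocytes (2.04) lie highest, neural lists lie lowest, and the skeletal muscle median moves from -0.62 to -1.39 between the fits.

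Tissue around the cord differed between libraries as well. Of 45 tested skeletal muscle genes none passed the test with all libraries (median -0.62), and 13 fell without both libraries numbered 1 (median -1.39). In that fit 65 of all 13765 genes fell. MYLPF, a fast muscle myosin light chain, stood at 3109.9, 14894 and 8516 TPM in uninjured and 5773, 4138 and 5762 TPM in control libraries. MYOZ2, a protein of the muscle Z-disc, was at 20.6, 35.7 and 47.8 TPM in uninjured and 18.3, 9.46 and 10.7 TPM in control libraries (adjusted p = 0.731 and 0.0866). MYLPF was thus highest in uninjured replicates 2 and 5 and overlapped between groups. Skin and keratin markers summed to 8654, 26687 and 14449 TPM and 18629, 18077 and 18112 TPM, and KRT17, a keratin of wounded epidermis, lay at 23.8, 465 and 29.1 TPM in uninjured and 417, 636 and 586 TPM in control libraries (adjusted p = 0.154). Lymphocyte markers summed to 195, 77.4 and 85.1 TPM and 192, 67.2 and 96.6 TPM, and JCHAIN was the single call among 13 tested. That is 7.69%, where 0.839% of all genes rose. Fibroblast, endothelial and cartilage lists held no call, which lies near the 0.894% of all genes that passed. The part of muscle and skin in the results above was not tested.

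**Figure D4:**
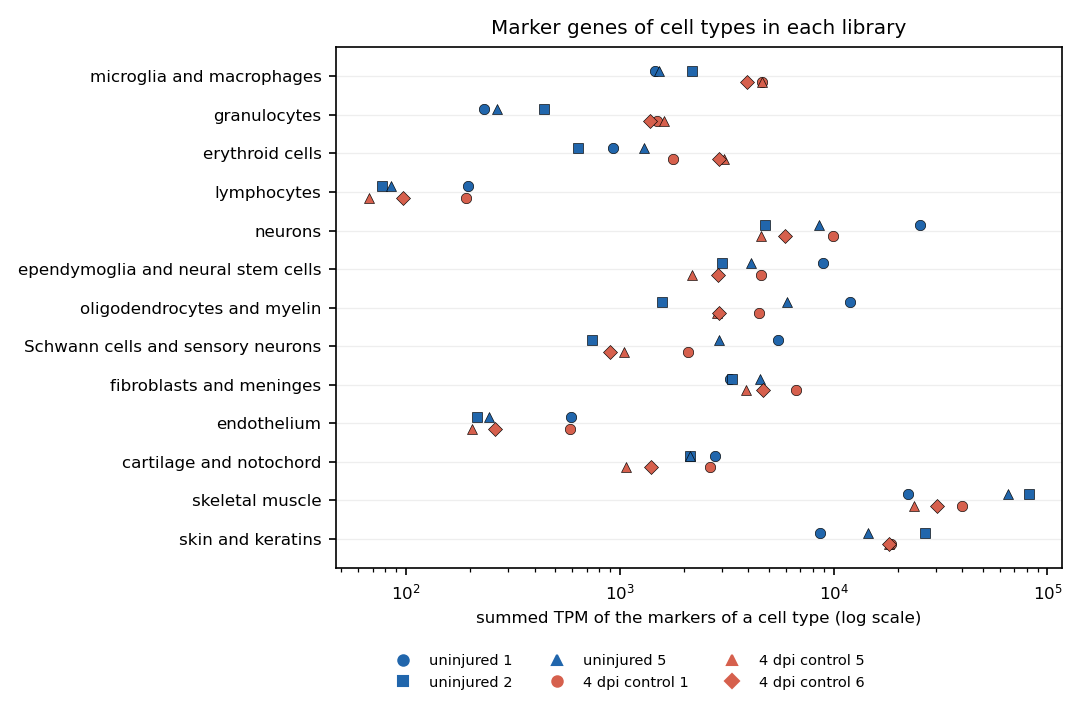
Summed TPM of the marker genes of 13 cell types on a log axis in each uninjured (blue) and 4 dpi control (red) library, with the symbol shape giving the replicate number. The macrophage, granulocyte and erythroid sums of the control libraries lie above all uninjured libraries, and the sums of the other cell types overlap, with uninjured replicate 1 highest for neurons. CTSB is the most abundant gene in the macrophage sum and LYZ in the granulocyte sum.

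The libraries that had received the miR-200a inhibitor show how far these levels held elsewhere in the series. They carry replicate numbers 5, 6 and 7 and share the uninjured libraries as a baseline, so the values are given side by side only, as mean ± SD over 3 libraries. LYZ stood at 84.98 ± 6.17 TPM in uninjured, 859 ± 82.2 in control, 682 ± 59.5 in uninjured inhibitor and 1753 ± 148 in 4 dpi inhibitor cords. PLBD1 was at 4.14 ± 1.16, 103 ± 24.6, 50.04 ± 11.7 and 142 ± 10.6 TPM in the same order, and LGALS1 at 204 ± 127, 1079 ± 139, 1852 ± 205 and 2176 ± 169.7 TPM. TYROBP lay at 7.49 ± 2.89, 39.7 ± 3.52, 36.9 ± 5.09 and 83.4 ± 2.78 TPM, and C1QC at 41.1 ± 26.3, 213 ± 40.1, 206 ± 36.1 and 283 ± 48.4 TPM. PRG2 stood at 2.39 ± 4.13, 26.4 ± 6.80, 33.8 ± 3.73 and 159 ± 26.3 TPM. For these genes the uninjured inhibitor cords, which had no injury, lay above the uninjured cords in every library. The same held for APOE, BATF3, CLEC5A and GLRX, and for many other risen genes. Among them were CYBB, LCP1, CD53, SRGN, MRC1, MARCO, TREM2, CLEC4M, CLEC4E, CTSB, CTSC, CTSL, ASAH1, TCN1, CXCR1, C5AR1 and FABP1. It did not hold for CLEC4G, SOAT1, CD68, SPI1, PTPRC, CCR1, HPX and CES1, which overlapped between uninjured and uninjured inhibitor cords. The granulocyte list summed to 1048.5, 889 and 970 TPM in uninjured inhibitor cords, above every uninjured library. The microglia and macrophage list, at 2450, 1812 and 2413 TPM there, overlapped the uninjured libraries. HMOX1 lay at 13.2 ± 5.86, 159.9 ± 72.4, 10.2 ± 0.647 and 60.2 ± 11.4 TPM, HGF at 1.53 ± 1.57, 12.4 ± 2.94, 1.32 ± 0.238 and 9.91 ± 2.71 TPM, and ATF3 at 1.502 ± 1.23, 9.18 ± 1.95, 1.99 ± 0.570 and 6.92 ± 0.557 TPM. These genes were low in both uninjured groups and higher in both injured groups. MMP10 stood at 5.39 ± 7.78, 68.6 ± 10.7, 5.11 ± 5.51 and 24.5 ± 13.6 TPM, and MMP2 at 81.8 ± 17.9, 249 ± 78.6, 67.1 ± 9.14 and 87.6 ± 3.86 TPM. MMP2 in 4 dpi inhibitor cords was near its uninjured level. Among genes that fell, C1QTNF9 was at 30.7 ± 15.01, 1.02 ± 0.870, 0.457 ± 0.627 and 14.6 ± 5.43 TPM, lowest in control and in uninjured inhibitor cords. SESN1 lay at 257 ± 28.05, 129.9 ± 14.3, 46.6 ± 4.04 and 57.4 ± 2.41 TPM, lowest in both inhibitor groups. FAM229A and ZAN were listed at 0 in all 9 libraries other than the uninjured ones. Inhibitor treatment and any difference between sets of libraries cannot be told apart here.

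**Figure D5:**
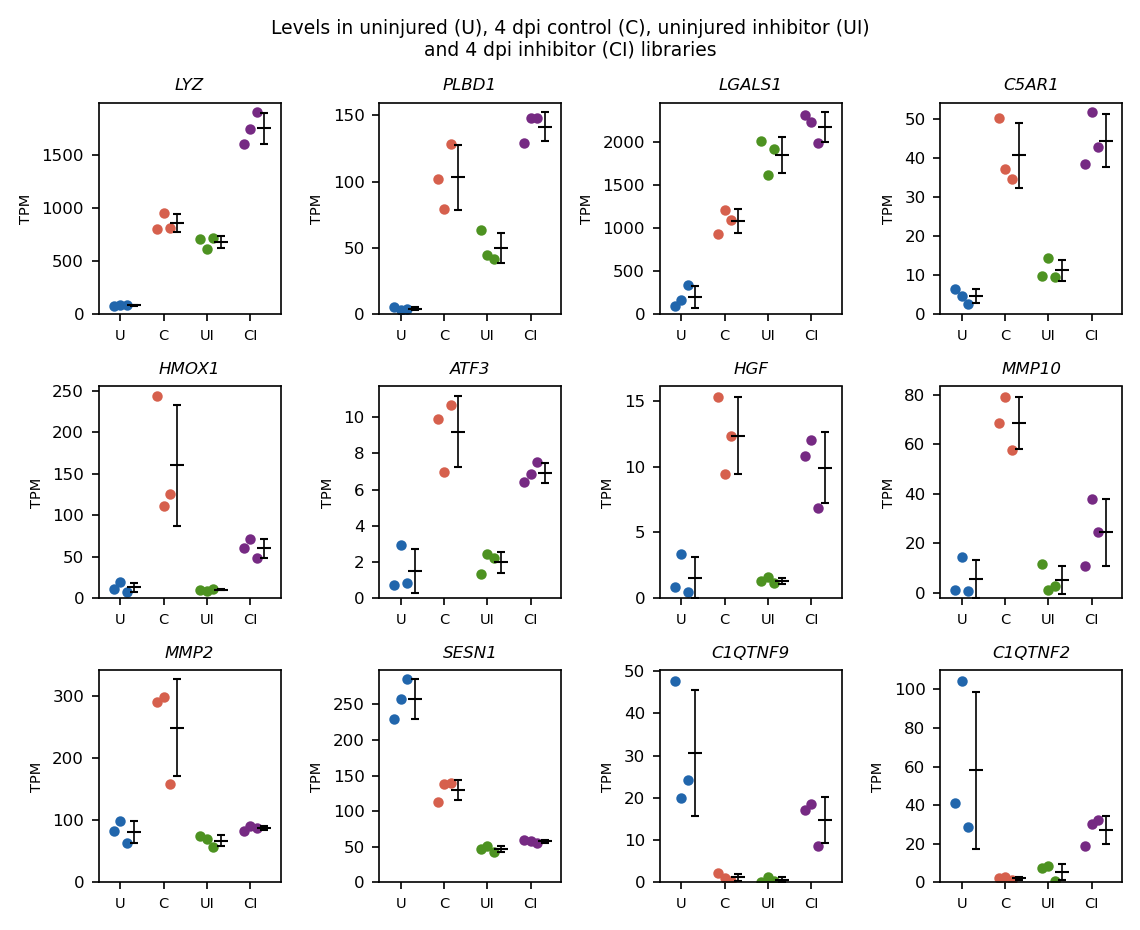
TPM of 12 genes that rose or fell in uninjured (U), 4 dpi control (C), uninjured inhibitor (UI) and 4 dpi inhibitor (CI) libraries, as 1 point per library with mean ± SD (n = 3) beside them. LYZ, PLBD1 and LGALS1 are high in UI as well as in both injured groups, whereas HMOX1, HGF and ATF3 are high in the injured groups only.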

How the data were processed

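Reads (Illumina, paired) of all samples were pooled by the authors for a de novo Trinity assembly. Contigs were assigned to human proteins (Ensembl release 85) by best BLASTX hit. Per the submitters' processing notes and the methods, Bowtie 0.12.1 and RSEM 1.1.6 gave estimated counts, which were summed per human symbol, so paralogs and strands that share a best hit share a value. The deposited TPM are the authors' values, corrected for contig length. They sum to 1000000 per library, so depth is unknown and no counting interval is given. DESeq2 1.16.1 was run by the authors on counts that are not used here.

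TPM were analysed here as log2(TPM + 0.1) with limma 3.58.1 (R 4.3.3), 1 term per group over 12 libraries (8 residual degrees of freedom), and a variance trend. P-values were adjusted by Benjamini-Hochberg across all 14310 genes that averaged 1 TPM or more in the 6 libraries. A fold change on this scale understates low genes. The methods call the samples biological replicates, 3 per group, and the labels do not say that libraries came from separate batches of animals. The p-values measure only the spread between these samples, taken within groups over all 12 libraries. A symbol stored as a date was restored for 25 genes. The script was tested on simulated data.

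The comparison, its gene lists and the alternatives were chosen with earlier results of these data known. The text names, by rule, all fallen genes, the 30 largest increases with at least 5 TPM and no overlap, the 15 most abundant called genes, the 15 smallest adjusted p-values, genes the study named, and per list the called genes, up to 4 others by p and the most abundant. Some genes that this rule names are not reported here. MILR1, LY86, NCKAP1L, SLA, OCSTAMP, P2RY12, CST7, CTSD, SERPINB10, CMKLR1, GPR34, CES5A, APOA1, PI15, SIGLEC14, C6orf25, KLHL9, TVP23A and MKI67 fall outside the rule and were named after their values were seen. Alternatives were another pseudocount, filters, scalings, thresholds, variance models, library weights, a replicate block, and leaving out libraries.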

Additional observations from a re-analysis of the deposited data

How the results depend on the processing

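Against 128 changed genes (120 rose, 8 fell), the count was 210 (191 and 19) with quantile normalization, 15 (14 and 1) with only the 6 compared libraries, 1284 (933 and 351) with library weights estimated gene by gene, and 286 (221 and 65) without both libraries numbered 1. At an adjusted p under 0.1 it was 211 (193 and 18) and under 0.01 it was 78 (75 and 3), and 3 genes fell when 5 TPM was the minimum. Leaving out 1 of the 6 libraries gave 76 to 294 changed genes, 74 to 257 risen and 2 to 39 fallen. The lowest counts came without control replicate 6 and the highest changed and risen counts without uninjured replicate 2. The cause was not tested. Of the 128 genes, 68 passed in all 6 of those fits, and every one tested kept its sign in every alternative. With median-of-ratios scaling 136 genes changed, of which 104 were among the 128. A pseudocount of 1, no filter, a filter over 12 libraries and no variance trend gave 115 to 133.

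With the replicate number as a block the count was 697 (357 and 340), and 527 (378 and 149) with median-of-ratios scaling as well. The compared groups share only numbers 1 and 5. The libraries numbered 1 deviated together with r = 0.48 across genes, the highest value of any uninjured and control pair. For number 5 r was 0.15, below the 0.249 of uninjured replicate 2 and control replicate 5, which share no number. The main test did not take the numbers to pair samples, and a shared origin of the libraries numbered 1 was not tested. A call under the block is not a stronger effect.

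A few genes with no call changed sign. With 1 library left out the log2 fold change ran from -1.10 to 0.45 for P2RY12, from -1.21 to 0.0058 for APOA1 and from -0.91 to 0.17 for SOX2, each highest without uninjured replicate 1. It ran from -1.13 to 0.0048 for MYLPF, highest without uninjured replicate 2. It was 0.32 for P2RY12 without both libraries numbered 1, and -0.0119 for TLR2 with library weights. Depth is unknown, so no limit of detection can be given for genes listed at 0.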
